A study of Mus musculus with 6 samples.

Results

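The xenobiotic metabolism enzymes described here are the mouse genes whose symbol starts with Cyp1, Cyp2, Cyp3, Cyp4, Gsta, Gstm, Gstp, Gstt, Gsto, Ugt1, Ugt2, Sult, Fmo, Cbr, Aox or Ephx. Of 19938 genes measured with a probe set that carries 1 symbol, 142 met this rule. Taken by spelling, the rule also gathered 13 cytochrome P450 genes numbered 10 or more, such as Cyp26b1, and Fmod, which encodes the matrix protein fibromodulin and is no such enzyme. These 14 genes are described apart, and 128 belong to the named enzyme families. RefSeq lists 3 of the 128 as transcribed pseudogenes: Cyp2d13, Cyp2d37-ps and Cyp4f41-ps. Another 17 probe sets of these families carry several symbols and were left out. Among them are every UGT1 probe set, the one shared by Cyp2a4 and Cyp2a5, and the one shared by Ugt2a1 and Ugt2a2. These genes are therefore not among the members, and nothing is said here of their levels. Fezf1-expressing cells were isolated by FACS out of microdissected main olfactory epithelium (MOE) of embryos on a C57BL/6 background at E18.5. They were heterozygous (Fezf1+/-) or null (Fezf1-/-) for Fezf1, a zinc-finger transcription factor gene, with 3 arrays for each genotype. Both genotypes carry the targeted allele, in which the gene's own promoter drives EGFP, and the sort used that reporter. No wild-type sample was analysed here, and the labels do not say whether a sample came from 1 embryo or from pooled embryos.

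Enzymes of foreign compound metabolism act in stages. Cytochromes P450, flavin monooxygenases, aldehyde oxidases, carbonyl reductases and epoxide hydrolases oxidise, reduce or hydrolyse small lipophilic molecules. Glutathione transferases, sulfotransferases and UDP-glucuronosyltransferases then join the product to glutathione, sulfate or glucuronic acid, which makes it water soluble. The olfactory mucosa is known as one of the richest sites of these enzymes outside the liver, mainly in its sustentacular cells and Bowman glands, where they are thought to clear odorants and inhaled toxicants.

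Values are log2 signals of a probe set, and a difference is null minus heterozygous, so that -1 is a 2-fold lower signal in null cells. Signals depend on the probes as well as on RNA, so the level of a gene is compared between arrays and never with another gene. Fezf1 lay between 11.12 and 11.30 on the heterozygous arrays and between 5.56 and 6.28 on the null arrays, so each array matched its labelled genotype. Null replicate 1 stood apart, with correlations across genes of 0.905 to 0.935 to the other arrays, against 0.975 to 0.995 among the other 5. The counts and the genes that passed are therefore given over all 6 arrays and over the 5 arrays without it. Because the samples are bulk RNA, fewer cells of a type and less RNA per cell cannot be told apart.

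Over all 6 arrays no enzyme passed the test. By limma, 0 of the 142 members had an adjusted p under 0.05, where 0.552% of all genes did. At an unadjusted p under 0.05, 6 members were higher and 3 were lower, against 4.23% higher and 5.25% lower over all genes. The smallest adjusted p was 0.175, that of Gstm4. The member median was 0.01, with 73 positive and 69 negative differences, and the median of all 19938 genes was 0.02, with 54.8% positive. A difference of at least 1 log2 unit was reached by 2 members, Cyp2j9 and Sult6b1, and by 3.13% of all genes. With arrays weighted by their quality in limma (arrayWeights), 4 members passed, or 2.82%, where 3.71% of all genes did. They were Ephx1, Gstm3 and Gstm4, which were lower, and Sult6b1, which was higher.

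In the 5 arrays without null replicate 1, 6 of 142 members passed, or 4.23%, where 2.66% of all genes did. The glutathione transferase genes Gstm1, Gstm3 and Gstm4, the epoxide hydrolase gene Ephx1 and the sulfotransferase gene Sult1a1 fell, and the sulfotransferase gene Sult6b1 rose. In that fit 5 members were lower and 1 higher, against 1.67% lower and 0.993% higher over all genes. The 2 null arrays lay below all heterozygous arrays in 32 members (22.5%, against 16.3% of all genes) and above them in 20 members (14.1%, against 19.9%). At an unadjusted p under 0.05, 7 members were higher and 22 lower, against 7.63% and 8.68% of all genes. The members' median difference was -0.02 there, with 65 positive, against 0.02 over all genes, of which 55.3% were positive.

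**Figure D1:**
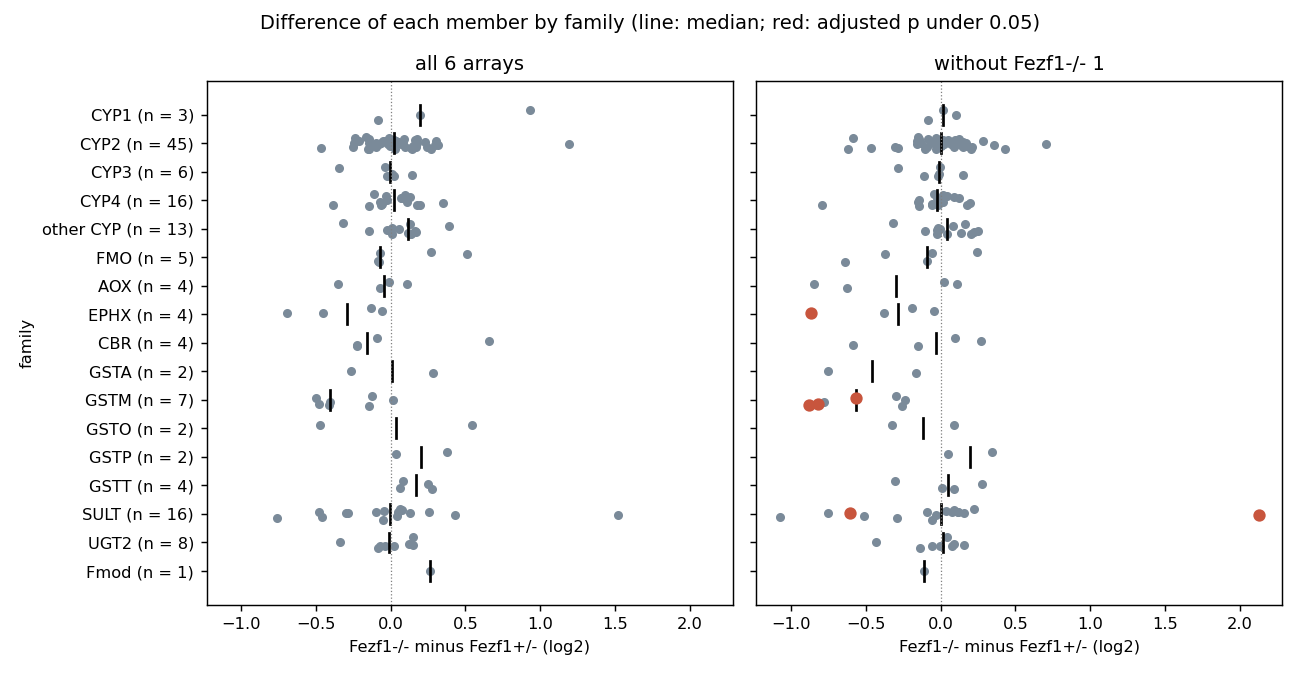
Difference between null and heterozygous arrays (log2, horizontal axis) of each of the 142 members by family (vertical axis), over all 6 arrays on the left and without null replicate 1 on the right. Points are genes, black lines family medians, and red points have an adjusted p under 0.05 by limma; there are 0 red points on the left and 6 on the right, of which 3 are in GSTM.

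Among the phase I enzymes, CYP2, the largest P450 family and one that includes most olfactory P450 genes, had 45 members, of which 0 passed in either fit. Cyp2a4 and Cyp2a5, which share a probe set, were not among them. Cyp2g1, the P450 gene long used as a mark of olfactory mucosa, stood at 11.64, 11.44 and 11.26 on the heterozygous arrays and at 11.90, 10.96 and 10.76 on null arrays 1, 2 and 3. Null array 1 was thus the highest of all and the other null arrays the lowest. The difference of Cyp2g1 was -0.24 (SE 0.31, adjusted p = 0.814) over all arrays and -0.58 (SE 0.14, adjusted p = 0.0941) without null replicate 1. Cyp2f2, which oxidises naphthalene in airway cells, was 10.87, 11.30 and 10.20 in heterozygous and 11.58, 9.91 and 10.42 in null cells, and its groups overlapped in both fits. It is named here after its values were seen. Cyp2j6, a P450 of fatty acid oxidation, stood at 7.56, 7.72 and 7.52 in heterozygous cells and at 8.92, 7.27 and 7.001 in null cells. Its sign turned from 0.13 over all arrays to -0.46 without null replicate 1 (adjusted p = 0.938 and 0.123).

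Cyp2j9, of the same subfamily as Cyp2j6, was 5.64, 5.52 and 5.52 on the heterozygous arrays and 7.72, 6.56 and 5.98 on null arrays 1, 2 and 3. All null values lay above all heterozygous values, and null array 1 was the highest. The difference was 1.19 (SE 0.43, adjusted p = 0.46) over all arrays and 0.71 (SE 0.17, adjusted p = 0.104) without null replicate 1, so it did not pass. Across all members, the null arrays lay entirely above the heterozygous arrays in 13 and entirely below in 10, where 9.72% and 8.77% of all genes did. The pseudogene Cyp2d13 differed by 0.30 (adjusted p = 0.339) at a signal near 4. Of the CYP2 members, 24 stayed on every array below 4.30, the lowest array's lower quartile, among the dimmest signals of the arrays.

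CYP1, CYP3 and CYP4 held 3, 6 and 16 members, and 0 passed in either fit. Cyp1b1, a P450 of steroid and polycyclic hydrocarbon oxidation, was 5.74, 5.77 and 5.32 in heterozygous cells. It stood at 8.38 on null array 1 and at 5.65 and 5.61 on the other null arrays, so its difference of 0.93 (SE 0.76, adjusted p = 0.727) became 0.02 (SE 0.15) without that array. Cyp1a1, the classic target of the aryl hydrocarbon receptor, differed by 0.19 (SE 0.12, adjusted p = 0.665) at signals between 3.96 and 4.47. All 6 CYP3 members, a family known from liver and gut, stayed below 4.30 on every array, among them Cyp3a44 at -0.35 (adjusted p = 0.382) and Cyp3a25 at 0.15. In CYP4, the fatty acid omega-hydroxylases, Cyp4f16 differed by 0.35 (adjusted p = 0.595) and Cyp4a14 by 0.18, and Cyp4f13 lay between 6.93 and 7.27 on all arrays.

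The 13 P450 genes numbered 10 or more, most of which act on steroids, retinoic acid, vitamin D or cholesterol, had a median of 0.12, with 0 past the test in either fit. Cyp39a1, an oxysterol hydroxylase, stood between 7.44 and 7.90 in heterozygous cells and at 8.58, 7.53 and 7.82 in null cells (difference 0.39, SE 0.29, adjusted p = 0.716). Cyp26c1, which degrades retinoic acid, differed by 0.12 and Cyp21a1, a steroid hydroxylase, by -0.32 (adjusted p = 0.683 and 0.549). Fmod was 5.55, 5.92 and 5.18 in heterozygous cells and 6.57, 5.44 and 5.43 in null cells, a difference of 0.26 (adjusted p = 0.823).

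The epoxide hydrolase Ephx1, which hydrates reactive epoxides in the endoplasmic reticulum, was 10.45, 10.63 and 10.25 on the heterozygous arrays and 10.82, 9.57 and 9.59 on null arrays 1, 2 and 3. Null arrays 2 and 3 lay well under every heterozygous value, and null array 1 lay over them. Without null replicate 1 it fell by 0.86 on the log2 scale (SE 0.13, adjusted p = 0.0218 by limma), a 1.82-fold lower signal, from 10.44 ± 0.19 (SD, n = 3) to 9.58 ± 0.01 (SD, n = 2). Over all 6 arrays the difference was -0.45 (SE 0.36, adjusted p = 0.721). Ephx4, a related hydrolase of unknown substrate, was lower on every null array, at 5.84, 6.82 and 6.77 against 7.03, 7.04 and 7.45, and did not pass (-0.69, SE 0.29, adjusted p = 0.533, and -0.38, adjusted p = 0.277, in the 5 arrays). Ephx2 and Ephx3 stayed between 4.04 and 4.49 on all arrays. They are named to complete the family.

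Flavin monooxygenases, aldehyde oxidases and carbonyl reductases oxidise amines, oxidise aldehydes and heterocycles, and reduce ketones. Of their 5, 4 and 4 members 0 passed in either fit. Under other settings of the 5-array fit, Cbr2 and Fmo2 passed with median centring (adjusted p = 0.0393 and 0.048 by limma). They also passed with genes above the median mean only (0.04 and 0.0482) and with trend and robust eBayes settings (0.017 and 0.0371). They did not pass with quantile normalisation or averaged probe sets. Among these settings Aox2 passed with median centring alone (0.0382). Fmo1 was 8.43, 8.42 and 8.10 in heterozygous cells, 10.60 on null array 1, and 8.10 and 7.80 on null arrays 2 and 3. Fmo2 was 9.28, 9.47 and 9.08 in heterozygous and 10.33, 8.71 and 8.58 in null cells, a difference of -0.08 (SE 0.47, adjusted p = 0.963) over all arrays and -0.64 (SE 0.13, adjusted p = 0.0673) without null replicate 1. Both genes were thus highest on null array 1 and lowest on the other null arrays. Fmo4 differed by 0.27 and Fmo9 by -0.07 over all arrays (adjusted p = 0.524 and 0.806).

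Aox2 (9.56, 9.15 and 8.92 against 9.86, 8.40 and 8.32) and Aox3 (6.62, 7.13 and 6.45 against 7.76, 6.18 and 6.03) took the same order of arrays. Over all arrays they differed by -0.35 and -0.07 (adjusted p = 0.807 and 0.964). Without null replicate 1 the difference of Aox2 was -0.85 (SE 0.19, adjusted p = 0.0758) and that of Aox3 was -0.63 (SE 0.20, adjusted p = 0.195). Aox1 differed by 0.11 (adjusted p = 0.711). Cbr2, a tetrameric carbonyl reductase of lung and olfactory epithelium, was 12.55, 12.62 and 12.33 in heterozygous cells and 13.00, 11.95 and 11.89 in null cells. Its difference was -0.22 (SE 0.31, adjusted p = 0.826), and -0.58 (SE 0.11, adjusted p = 0.055) without null replicate 1. Cbr3 differed by 0.66 over all arrays, mainly through null array 1 at 6.05, against 4.95 and 4.86 on the other null arrays (adjusted p = 0.612). Cbr4, a mitochondrial reductase, differed by -0.22 (adjusted p = 0.71).

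Among the conjugating enzymes, the mu class glutathione transferases were the family with the most called members. Their 7 genes form 1 cluster on chromosome 3. Without null replicate 1 all 7 had a negative difference, with a median of -0.56, 3 fell, and 0 rose. In that fit 1.67% of all genes fell, and a list of 7 genes is too short for a share to be read. Of the 3 calls, that of Gstm3 is uncertain, as described below. Over all 6 arrays 6 of 7 were negative, with a median of -0.41, and 0 passed. Gstm1 was 11.15, 11.47 and 11.15 on the heterozygous arrays and 11.79, 10.48 and 10.27 on null arrays 1, 2 and 3. In the 5 arrays it fell by 0.88 (SE 0.14, adjusted p = 0.024 by limma), a 1.84-fold lower signal, and over all 6 its difference was -0.41 (SE 0.40, adjusted p = 0.76).

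Gstm4 differed from the others of its family in that all 3 null arrays were low. It was 8.69, 8.90 and 8.81 in heterozygous cells and 8.42, 8.27 and 8.20 in null cells, so the groups did not overlap with null replicate 1 included. Its difference was -0.50 (SE 0.10, adjusted p = 0.175) over all 6 arrays and -0.56 (SE 0.10, adjusted p = 0.0432) in the 5 arrays, from 8.80 ± 0.11 (SD, n = 3) to 8.24 ± 0.05 (SD, n = 2), a 1.48-fold lower signal. With each array centred on its median, the adjusted p in the 5 arrays was 0.0629.

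Gstm3 was 8.31, 8.52 and 8.31 in heterozygous cells and 8.59, 7.70 and 7.42 in null cells, and fell by 0.82 in the 5 arrays (SE 0.13, adjusted p = 0.0239), with a difference of -0.48 (SE 0.30, adjusted p = 0.676) over all 6. It is the only member with a second probe set, which gave 6.42, 5.99 and 6.52 in heterozygous and 6.64, 6.28 and 6.13 in null cells. That probe set did not separate the groups, and with the probe sets averaged Gstm3 differed by -0.46 in the 5 arrays (adjusted p = 0.0888). By its number the second probe set lies between those of Gstm6 and Gstm2. The number of the probe set used lies outside those of the other mu class genes, near that of Sult3a1, a chromosome 10 gene. Where either probe set maps was not checked, so the call of Gstm3 is uncertain. Gstm2 (-0.78, SE 0.20, adjusted p = 0.111), Gstm7 (-0.26), Gstm6 (-0.30) and Gstm5 (-0.24, SE 0.24, adjusted p = 0.671), named after their values were seen, did not pass in the 5 arrays. Mu class genes are similar in sequence, so a probe set of one may also bind transcripts of another.

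**Figure D2:**
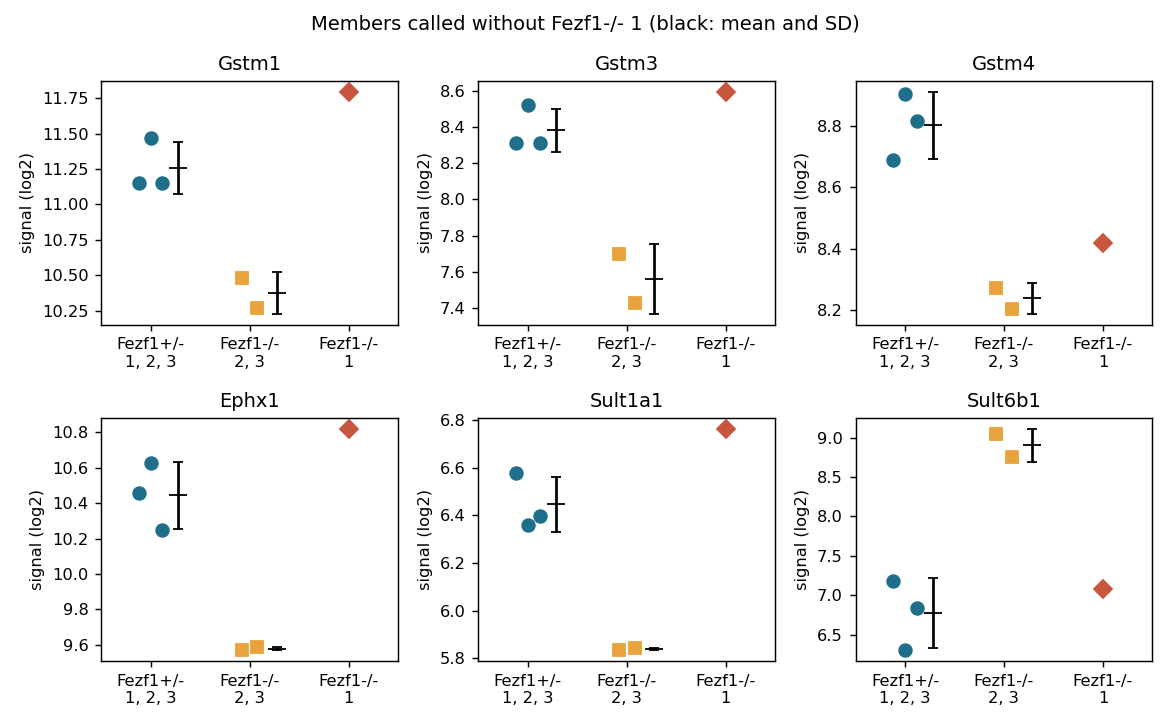
Log2 signal (vertical axes, each with its own range) of the 6 members past the test without null replicate 1. Blue circles are the 3 heterozygous arrays, orange squares null arrays 2 and 3, the red diamond null array 1, and black marks the mean and SD of the first and second sets; Gstm1, Gstm3, Ephx1 and Sult1a1 are highest on null array 1, Gstm4 is low on it, and Sult6b1 is high on null arrays 2 and 3, at 9.05 and 8.75.

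The 250 bases before the start of the 3 mu class genes that fell, and of Sult6b1, the member that rose, are shown to let their promoters be compared. They are from RefSeq on GRCm38.p6, written 5′ to 3′ on the gene's strand, with matches to the searched letters in capitals. For Gstm1 and Gstm4, which have several annotated starts, the window furthest upstream is given.
Gstm1, chr3:108017974-108018223, minus strand: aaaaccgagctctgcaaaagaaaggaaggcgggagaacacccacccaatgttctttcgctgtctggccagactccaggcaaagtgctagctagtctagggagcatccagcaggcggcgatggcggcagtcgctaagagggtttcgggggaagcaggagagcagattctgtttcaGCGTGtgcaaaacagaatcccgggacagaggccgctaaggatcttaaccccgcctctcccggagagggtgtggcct
Gstm3, chr3:107969175-107969424, minus strand: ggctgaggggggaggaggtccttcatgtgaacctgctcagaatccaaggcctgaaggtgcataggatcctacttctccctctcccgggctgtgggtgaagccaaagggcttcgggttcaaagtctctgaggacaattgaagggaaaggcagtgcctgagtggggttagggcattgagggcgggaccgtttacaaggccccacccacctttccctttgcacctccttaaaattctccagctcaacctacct
Gstm4, chr3:108044860-108045109, minus strand: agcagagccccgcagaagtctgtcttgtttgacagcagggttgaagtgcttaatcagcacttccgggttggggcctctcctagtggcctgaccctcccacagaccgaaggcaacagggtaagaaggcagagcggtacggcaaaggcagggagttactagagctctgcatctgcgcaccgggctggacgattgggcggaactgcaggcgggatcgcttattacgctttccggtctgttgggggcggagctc
Sult6b1, chr17:78906993-78907242, minus strand: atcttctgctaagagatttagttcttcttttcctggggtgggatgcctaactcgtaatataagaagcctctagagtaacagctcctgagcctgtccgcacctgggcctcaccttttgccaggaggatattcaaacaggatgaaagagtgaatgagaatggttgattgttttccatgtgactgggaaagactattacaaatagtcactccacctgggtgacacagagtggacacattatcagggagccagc

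Letters were searched on both strands. GCGTG, the core of the dioxin response element bound by the aryl hydrocarbon receptor, occurs in the Gstm1 window, 76 bases before the start, and in 28.2% of all 32851 windows and 27 of 136 windows (19.9%) of members. TGACNNNGC, the core of the antioxidant response element, occurs in none of these 4 windows, and in 10.2% of all windows and 5 of 136 windows of members. CCCNNGGG, the core of an Ebf site, was likewise not in these 4 windows, and was in 11.8% of all windows and 4 of 136 windows of members. Windows were listed for 116 of the 142 members. A match describes letters only.

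The other glutathione transferases had 0 called members in either fit. Gsta4, an alpha class enzyme that conjugates lipid peroxidation products, was 10.96, 11.23 and 10.54 in heterozygous and 11.61, 10.30 and 10.01 in null cells, a difference of -0.27 (SE 0.44) over all arrays and -0.75 (SE 0.21, adjusted p = 0.139) without null replicate 1. Gsta3 lay at 8.45 on null array 1 and between 6.97 and 7.66 on the other 5 arrays. Gstp1, the pi class enzyme, was 9.38, 9.19 and 9.12 in heterozygous cells and 9.67, 9.61 and 9.54 in null cells. All null values of Gstp1 were higher, by 0.38 (SE 0.10), and it did not pass (adjusted p = 0.307, and 0.197 in the 5 arrays, with a difference of 0.34). Gstp3 differed by 0.03.

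The omega class gene Gsto2 was lower on every null array, at 6.38, 6.80 and 6.81 against 7.08, 7.09 and 7.24 (difference -0.47, SE 0.15, adjusted p = 0.384, and -0.33, adjusted p = 0.164, in the 5 arrays). Its relative Gsto1 was 6.59, 7.70 and 6.35 in heterozygous and 8.32, 7.06 and 6.88 in null cells, with overlap of the groups (difference 0.54, SE 0.51). In the theta class, Gstt3 was 7.30, 7.23 and 6.94 in heterozygous and 8.02, 6.90 and 6.80 in null cells, so its difference was 0.08 over all arrays and -0.31 without null replicate 1. Gstt1 differed by 0.27 and Gstt4 by 0.25 over all arrays (adjusted p = 0.664 and 0.554).

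Sulfotransferases, which transfer sulfate from the donor PAPS, held both directions. Sult6b1 was 7.18, 6.30 and 6.84 on the heterozygous arrays, 7.08 on null array 1, and 9.05 and 8.75 on null arrays 2 and 3. Null array 1 lay within the heterozygous range, while the other null arrays lay over it. Without null replicate 1 Sult6b1 rose by 2.13 (SE 0.25, adjusted p = 0.00934 by limma), a 4.37-fold higher signal, from 6.78 ± 0.44 (SD, n = 3) to 8.90 ± 0.21 (SD, n = 2). Over all 6 arrays the difference was 1.52 (SE 0.54, adjusted p = 0.461). Sult6b1 belongs to a little studied subfamily that has been linked to thyroxine sulfation.

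Sult1a1, the phenol sulfotransferase, was 6.58, 6.36 and 6.40 in heterozygous and 6.76, 5.84 and 5.84 in null cells, and fell by 0.61 in the 5 arrays (SE 0.10, adjusted p = 0.0335), a 1.52-fold lower signal. Sult1a1 differed by -0.30 (SE 0.27, adjusted p = 0.743) over all 6. Sult1c1 (9.66, 9.96 and 9.40 against 10.33, 8.87 and 8.98) followed the same order of arrays and did not pass (-0.75, SE 0.17, adjusted p = 0.0776 in the 5 arrays). In the 5 arrays it passed with median centring and with trend and robust eBayes settings (adjusted p = 0.0463 and 0.0479 by limma). It did not pass with quantile normalisation, averaged probe sets or genes above the median mean only. Sult1c1 is named after its values were seen. Sult1e1, the oestrogen sulfotransferase, was 8.48, 8.99 and 8.38 in heterozygous and 9.39, 7.93 and 7.16 in null cells, with a difference of -1.07 (SE 0.27, adjusted p = 0.109) in the 5 arrays. Sult1b1 was 5.94, 5.91 and 5.86 in heterozygous and 7.05, 5.62 and 5.16 in null cells (-0.51, adjusted p = 0.148 in the 5 arrays).

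In 4 of the 16 sulfotransferases null array 1 was the lowest array instead: Sult1d1, Sult4a1, Sult2b1 and Sult3a2. Sult2b1 and Sult3a2 are named after their values were seen. Sult1d1, a sulfotransferase of catecholamines, was 11.24, 11.46 and 11.55 in heterozygous cells and 9.71 on null array 1, with 10.98 and 11.27 on the other null arrays (difference -0.76, SE 0.40, adjusted p = 0.616). Sult4a1, a brain-enriched member without established activity, stood at 10.42, 10.28 and 10.65 in heterozygous cells. It was 8.85 on null array 1 and 10.48 and 10.57 on the other null arrays, within the heterozygous range. The 8 UGT2 members, glucuronosyltransferases known mainly from liver, stayed between 3.11 and 4.52 on all arrays, and 0 passed in either fit. Ugt2a1 and Ugt2a2, which share a probe set, were not among them. Ugt2b38 differed by -0.34, Ugt2b37 by 0.15 and Ugt2b35 by 0.12 (adjusted p = 0.575, 0.718 and 0.71).

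The calls rest on few arrays. Within the 5 arrays, leaving out heterozygous replicate 1 kept Gstm1 and Sult6b1 as calls, heterozygous replicate 2 kept Ephx1, Gstm1 and Sult6b1, and heterozygous replicate 3 kept Ephx1, Gstm1, Gstm3 and Sult6b1 and added Aox2, Cbr2, Fmo2, Gsta4 and Sult1c1. With only null array 3 or only null array 2 left, 0 of the 6 passed, and Sult6b1 had an adjusted p of 0.0914 and 0.052. With only null array 2 left, Cyp2j9 passed, higher by 0.999 (adjusted p = 0.0498). In these last fits the lone null array is assumed to vary like the heterozygous arrays.

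Many of the brighter enzymes shared an order of arrays. In 15 of the 35 members whose mean signal was above that of the median gene, 6.46, null array 1 lay above and null arrays 2 and 3 below all heterozygous arrays. This is 42.9%, where 8.71% of genes above the median had this order. Over all 142 members 20 had it, where 5.68% of all genes did. The 15 above the median were Aox2, Aox3, Cbr2, Cyp2g1, Cyp2j6, Ephx1, Fmo1, Fmo2, Gsta4, Gstm1, Gstm3, Gstm7, Gstt3, Sult1c1 and Sult1e1, and the other 5 were Cyp2d34, Cyp3a13, Cyp4f40, Sult1a1 and Sult1b1. The opposite order was seen in 1 member, Sult2b1, against 8.46% of genes above the median and 5.51% of all genes. In the 5 arrays the 35 had a median difference of -0.33, with 27 negative and 8 positive, against a median of -0.01 over genes above the median. Of the 35, 5 passed in the 5 arrays, where 2.83% of genes above the median did. The other 107 members had a median of 0.01. This split was made after the values were seen and is a description.

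**Figure D3:**
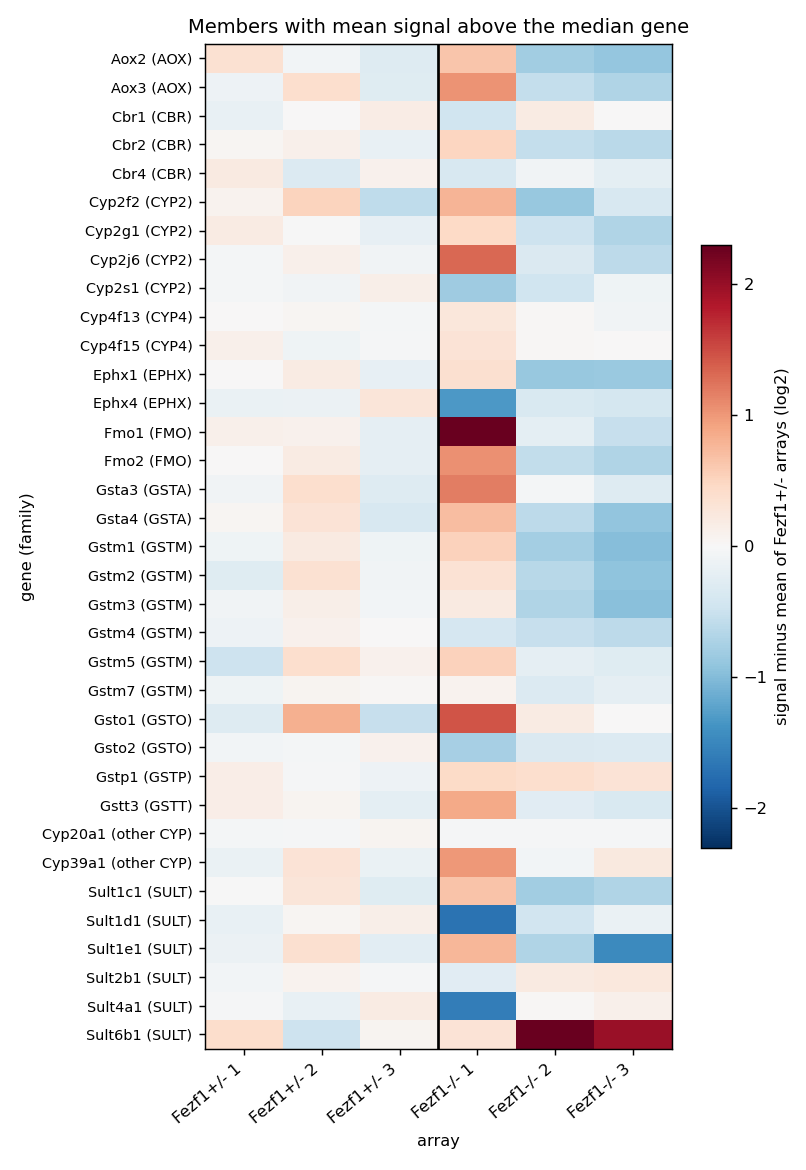
Signal of the 35 members with a mean above the median gene (rows, family in brackets) on each array (columns), as the difference from the mean of the heterozygous arrays in log2 units (colour, red higher, blue lower). Of the 35 rows, 23 are highest on null array 1, where 26.7% of genes above the median are. On null arrays 2 and 3, 20 rows are lower than on any heterozygous array, where 21.8% of genes above the median are. The 35 were split off after the values were seen. Sult6b1 is red on null arrays 2 and 3, and Sult1d1, Sult4a1 and Ephx4 are darkest blue on null array 1.

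Markers of supporting cells are given beside these enzymes. The 13 measured sustentacular markers, which include no member, had an array median of 7.54 to 7.76 in heterozygous cells, 8.86 on null array 1, and 7.17 to 7.31 on null arrays 2 and 3. Over all 6 arrays 8 of the 13 had a positive difference, with a median of 0.07, and 0 passed. Krt8, a keratin gene, was higher on every null array, by 0.67 (adjusted p = 0.3). Of these 13, 12 had a negative difference in the 5 arrays, with a median of -0.51, and 1 passed: Ermn, a cytoskeletal protein gene, fell by 0.96 (SE 0.15, adjusted p = 0.024). In 5 of the 13 markers (38.5%), null array 1 lay above and the other null arrays below all heterozygous arrays. This order was seen in 5.68% of all genes and 8.71% of genes above the median. The 10 Bowman gland markers had medians of 7.46 to 7.997, 8.25, and 6.56 to 7.07 in the same order, all with a negative difference in the 5 arrays and 8 of 10 over all 6, with a median of -0.32, and 0 passed in either fit. Of both lists 0 markers lay below 4.30 on every array, and their part in the enzyme differences was not tested.

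Other cell types also marked null array 1. The 10 mesenchyme and bone markers had a median of 10.66 there against 5.88 to 7.19 in heterozygous cells and 6.42 to 6.53 on the other null arrays. The 10 myeloid markers had 7.92 against 5.27 to 5.76 and 5.52 to 5.69, and the 14 mature olfactory neuron markers had 8.57 against 10.57 to 11.08 and 10.27 to 10.36. Null arrays 2 and 3 lay below all heterozygous arrays in 11 of these 14 and in 3 of 4 respiratory markers. They did so in 8 of 13 sustentacular and 7 of 10 Bowman gland markers, against 16.3% of all genes. In 9 of 10 immature neuron markers they lay above, against 19.9% of all genes. Null array 1 was the highest array in 56 of 142 members (39.4%, against 29.2% of all genes) and the lowest in 22, where it was the lowest in 32.7% of all genes. It lay at least 1 log2 unit above the mean of the other null arrays in 25 members and at least 1 below in 3, where 6.82% and 5.46% of all genes did. Their part in these values was not tested either.

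**Figure D4:**
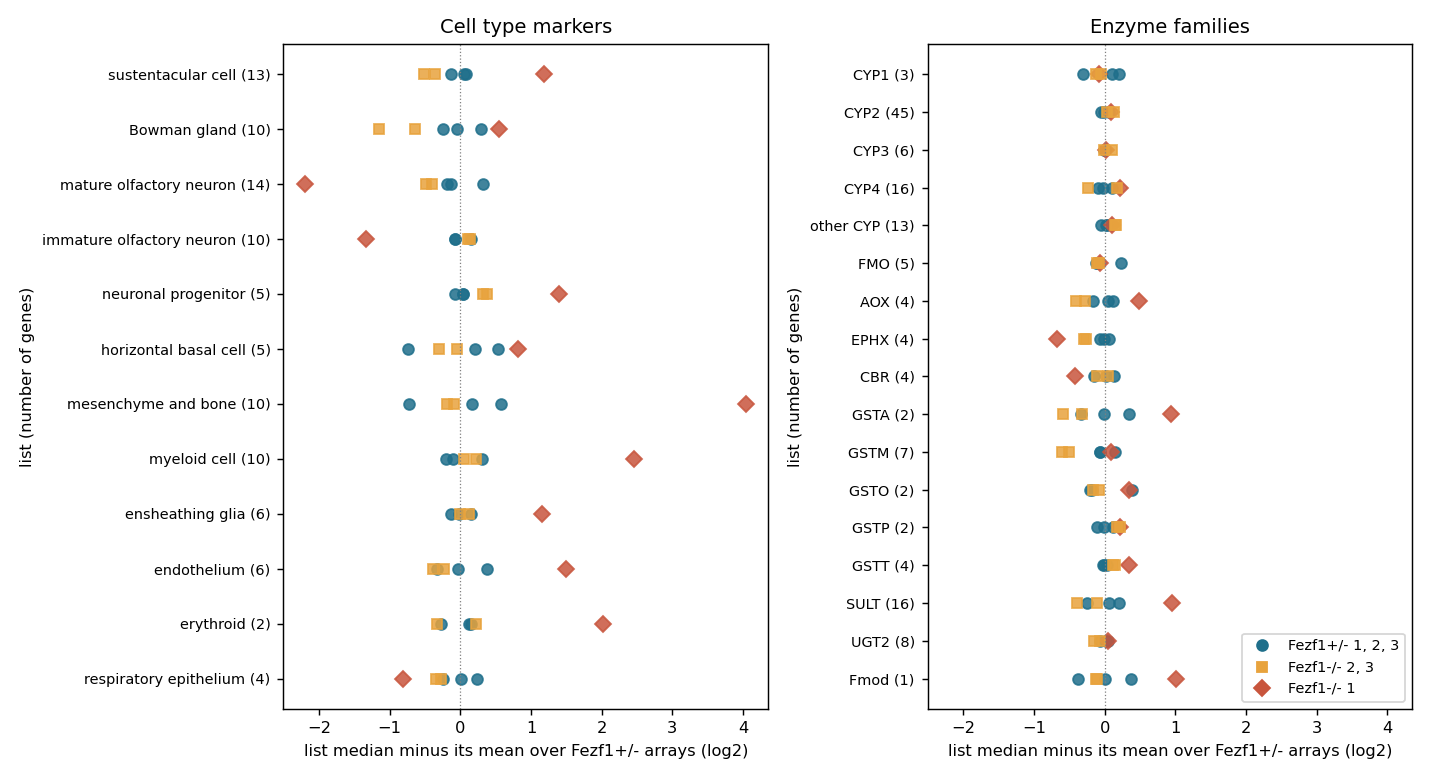
Median log2 signal of the 12 cell type marker lists (left) and of all 17 member groups (right) on each array, as the difference from its mean over the heterozygous arrays (horizontal axis, log2), with the number of genes in brackets. Circles are heterozygous arrays, squares null arrays 2 and 3, and diamonds null array 1. On null arrays 2 and 3 the medians of AOX, EPHX and GSTM, 3 of 17, lie below every heterozygous array. Those of GSTP, GSTT and the P450 genes numbered 10 or more, also 3, lie above, and the other 11 overlap. Of all single genes 16.3% lie below and 19.9% above, so these counts are not read as a result about families. AOX holds 2 members with a positive and 2 with a negative difference in the 5 arrays, and GSTP holds 2 members.

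Another 60 measured genes regulate or supply these enzymes, or are other enzymes and efflux pumps for foreign compounds. Of these 60, 0 passed over all 6 arrays and 2 fell in the 5 arrays. That is 3.33%, where 2.66% of all genes passed, so the share of the 60 is near that of all genes. The calls were 1 of 11 regulators (9.09%) and 1 of 9 cosubstrate genes (11.1%), lists too short for a share to be read. Nfe2l2, which encodes the transcription factor NRF2 that activates antioxidant response genes, was 8.93, 8.94 and 9.06 in heterozygous and 8.95, 8.37 and 8.41 in null cells. It fell by 0.58 in the 5 arrays (SE 0.09, adjusted p = 0.0266), and differed by -0.40 over all 6 (adjusted p = 0.54). Papss2, a synthase of the sulfate donor PAPS, was 9.65, 9.95 and 9.74 in heterozygous and 10.25, 9.04 and 9.13 in null cells. It fell by 0.70 in the 5 arrays (SE 0.12, adjusted p = 0.0312) and differed by -0.31 over all 6 (adjusted p = 0.779).

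Among the 11 regulators 1 fell and 0 rose in the 5 arrays, and Arnt2, a partner of PAS domain factors, differed by 0.33 over all 6 (adjusted p = 0.396). Of 9 cosubstrate genes 1 fell, and Slc35b2, the Golgi transporter of PAPS, differed by 0.20 (adjusted p = 0.624). The 4 electron donor and haem genes, 10 other conjugating enzymes, 18 other oxidising, reducing and hydrolysing enzymes and 8 efflux pumps had 0 calls in either fit. In these groups Alas1 (0.11, adjusted p = 0.732), Gstz1 (-0.37, adjusted p = 0.346), the lactonase gene Pon2 (0.53, SE 0.10, adjusted p = 0.14) and the pump gene Abcc1 (-0.44, adjusted p = 0.213) had the smallest p over all 6 arrays. Pon2 was 7.99, 8.26 and 8.03 in heterozygous and 8.66, 8.62 and 8.61 in null cells, so its groups did not overlap.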

How the data were processed

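The authors deposited 1 log2 signal for each probe set on each array. The submitters' processing notes name GCRMA and Affymetrix Expression Console. Their order, versions and build: not given in the sources used here. For the log2 scale, the base of 2 was taken from the range, 2.14 to 14.5. Arrays were Affymetrix 1.0 ST, per the series' design text, with 100 ng of total RNA per labelling. Of 35557 probe sets, 21789 carried 1 symbol, updated through Entrez numbers to RefSeq where listed (21698). A gene with several probe sets was represented by the brightest on average, with no filter. GCRMA subtracts an estimated background, and its effect on low values was not tested here. Scanner files were not used here, and the number of arrays limits precision.

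The test was two-sided, by lmFit and eBayes of limma 3.58.1 (R 4.3.3), over all 19938 genes, Benjamini-Hochberg threshold 0.05, with 3 against 3 arrays and without null replicate 1. Single-gene exact tests cannot go below p = 0.1 with 3 against 3, so none was run. Nothing says that samples are separate embryos or litters, so p-values reflect only the spread among these arrays, which may be technical. Same-numbered arrays deviated from their group means with correlations of 0.23, -0.33 and 0.54. With 3 arrays in a group and null replicate 1 far from the others, these values cannot show whether the numbers are pairs. The numbers were not treated as pairs in the main fits, and a fit with them as a block is given below. Members and lists were chosen with earlier results of these data known. Named genes were members past the threshold in either fit, the 2 of each family with the smallest p over 6 arrays, the highest heterozygous mean of each family, and the 10 for which null replicate 1 lay furthest from the other null arrays. Of the pathway genes they were those past the threshold and the smallest p of each group. Exceptions are marked. On simulated data with 200 changed genes of 19938, 53% of 2-fold and 88% of 4-fold changes were recovered over 6 arrays (147 calls, 6 false), and 72% and 93% over the 5 arrays (171 calls, 6 false). The simulated noise was normal and independent between genes and arrays. It held no array that departs in many genes together, as null replicate 1 does, so these shares may not hold for the real arrays. Alternatives were quantile normalisation, median centring, a filter on low genes, averaged probe sets, other eBayes settings, array weights, a replicate block and leaving out each array.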

Additional observations from a re-analysis of the deposited data

How the results depend on the processing

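Over all 6 arrays 0 members passed under quantile normalisation, median centring, genes above the median mean only, averaged probe sets, trend and robust eBayes settings and the families alone, and 4 passed with array weights. The count over all genes, 110 as reported, was 24 in genes above the median mean and 740 with array weights. The members' median was -0.15 over the 35 members left among genes above the median mean, and -0.020 over all members with array weights. Leaving out 1 array of the 6 gave 40 to 531 genes, 0 to 6 members, the 6 without null replicate 1, and a median of -0.018 to 0.040.

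Alternatives to the 5-array fit were chosen after seeing the data. The genes called were 559 with quantile normalisation, 560 with median centring, 402 above the median mean, 693 with trend and robust settings and 534 with averaged probe sets. The members called were 6, 9, 7, 10 and 5, and the medians of the members tested -0.028, -0.019, -0.327, -0.018 and -0.018, in the same order. The value of -0.327 covers only the 35 members above the median mean. Leaving out a further array gave 128 to 618 genes, 0 to 9 members and medians of -0.035 to 0.0029.

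Signs over all 6 arrays that turned were those of Gstp3 with quantile normalisation (-0.017) and, with array weights, of Fmod (-0.15), Gsta3 (-0.16), Cyp4f13 (-0.014), Gstt3 (-0.28), Fmo1 (-0.28), Cyp2j6 (-0.40), Sult4a1 (0.050) and Sult1b1 (-0.41). The cause was not tested. None of these had passed. With 1 array left out, values ran from -0.020 to 0.083 for Gstp3, -0.11 to 0.45 for Fmod, -0.16 to 0.57 for Gsta3, -0.026 to 0.14 for Cyp4f13, -0.31 to 0.31 for Gstt3, -0.37 to 1.03 for Fmo1 and -0.46 to 0.498 for Cyp2j6. They ran from -0.78 to 0.075 for Sult4a1, -0.51 to 0.43 for Sult1b1, -0.64 to 0.24 for Fmo2, -0.63 to 0.24 for Aox3, -0.75 to 0.047 for Gsta4 and -1.07 to 0.042 for Sult1e1.

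With the replicate number as a block over all arrays, 88 genes and 0 members passed with a member median of 0.0076. Without the block 0 members had passed there too, so the fit had no call of a member to change. The block was not applied in the 5 arrays, so whether the member calls made there hold with it was not tested. The small number of arrays and dim signals limit the precision: 46 members lay below 4.30 on every array.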
